A study of Homo sapiens with 12 samples.

Results

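A set of 10 genes commonly used to describe the epithelial-mesenchymal transition (EMT) was followed in cells of head and neck squamous carcinoma (HNSCC) with and without silencing of MUC1, a transmembrane mucin. They were CDH1, EPCAM, CDH2, VIM, FN1, SNAI1, SNAI2, ZEB1, ZEB2 and TWIST1, found by symbol in both count tables, and they make up 10 of the 39368 symbols that each table lists. The cells were CAL27 and HSC3, HPV-negative oral squamous carcinoma lines, each carrying a doxycycline-inducible MUC1shRNA in the pLKO-tet-puro vector and selected with puromycin. The groups were CAL27/tet-MUC1shRNA with vehicle (0.1% DMSO), CAL27/tet-MUC1shRNA with doxycycline (DOX, 500 ng/ml), HSC3/tet-MUC1shRNA with vehicle and HSC3/tet-MUC1shRNA with DOX, all for 7 days and with 3 libraries of polyA RNA in each. Every library thus came from puromycin-selected cells with the shRNA vector, vehicle libraries included. No library of cells with a control shRNA and DOX was analysed here, so effects of DOX itself or of expressing an shRNA cannot be told apart from those of lower MUC1. CAL27 cells were grown in DMEM and HSC3 cells in MEM, so line and medium cannot be told apart either.

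EMT is the process in which epithelial cells loosen their cell-cell junctions and take on features of motile mesenchymal cells. CDH1 and EPCAM encode adhesion molecules of epithelial cells, CDH2, VIM and FN1 encode a cadherin, an intermediate filament and a matrix protein of mesenchymal cells, and SNAI1, SNAI2, ZEB1, ZEB2 and TWIST1 encode transcription factors that can repress CDH1. In HNSCC, partial states in which epithelial and mesenchymal genes are expressed together are well known.

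The shRNA target was lower with DOX in both lines. MUC1 was at 58.4, 53.1 and 54.4 CPM (a read count relative to library size, scaled over all 12 libraries by edgeR's TMM method) in CAL27 cells with vehicle and at 2.92, 2.76 and 3.25 CPM with DOX, a log2 fold change of -4.21 (SE 0.0666, edgeR adjusted p = 1.6e-19). In HSC3 cells, where MUC1 was already low, it went from 1.66, 1.97 and 1.64 CPM to 0.310, 0.267 and 0.132 CPM (log2 fold change -2.88, SE 0.376, edgeR adjusted p = 2e-04). Library totals ran from 89730914 to 169065103 counts. The HSC3 libraries with DOX had the highest totals. Their detected genes numbered 19128 to 20910, against 20661 to 21243 with vehicle and 23707 to 24685 in CAL27 cells. Counts per molecule, estimated from how often a gene expected at 8 to 16 counts had none, were 2.42 to 3.38 in CAL27 cells, 4.19 to 7.45 in HSC3 cells with vehicle and 8.98 to 17.3 in HSC3 cells with DOX, the highest in DOX replicate 1, so low counts there rest on few molecules. Total counts divided by this estimate gave 9.79 to 16.3 × 1e6 molecules in the HSC3 libraries with DOX and 17.5 to 21.4 × 1e6 in those with vehicle. All 7 squamous markers were detected in every group, and KRT5, KRT14, KRT6A, TP63, DSG3 and DSC3 fell with DOX in both lines. Their summed level with SFN went from 5914 to 6188 CPM with vehicle to 2742 to 2917 CPM with DOX in CAL27 cells, and from 5951 to 6617 CPM to 2705 to 3154 CPM in HSC3 cells. Of 8 fibroblast markers, COL3A1 had no count in any group, and their summed level was 6.19 to 14.3 CPM over the 12 libraries. The sums were 0.290 to 7.84 CPM for 7 leukocyte markers and 0.175 to 15.4 CPM for 5 endothelial markers. Most of the endothelial sum in CAL27 cells was CDH5, at 14.6 ± 0.265 CPM (mean ± SD, n = 3) with vehicle and 9.97 ± 1.74 CPM with DOX.

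The 10 genes did not move together toward either state. In CAL27 cells EPCAM, CDH2 and ZEB1 rose with DOX and none fell, 3 of 10 genes, where 22.6% of the 19239 genes tested rose and 21.8% fell (edgeR quasi-likelihood test, called at 0.05 after Benjamini-Hochberg adjustment across the whole table). In HSC3 cells FN1 and EPCAM rose and none fell, 2 of 10 genes, where 13% of 18021 genes tested rose and 15.4% fell. These shares are close to the background, so the counts themselves single out nothing, and what follows is about the size and the pattern of each gene. All 10 genes passed the filter on low counts in every comparison, and their median log2 fold change was 0.10 for CAL27 and 0.26 for HSC3, beside medians over all genes tested of -0.0052 and -0.0097. With a fold change above 2 added to the rule, FN1 in HSC3 cells was the member left, where 1.58% of all genes rose by this much, against 1.31% for CAL27.

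**Figure D1:**
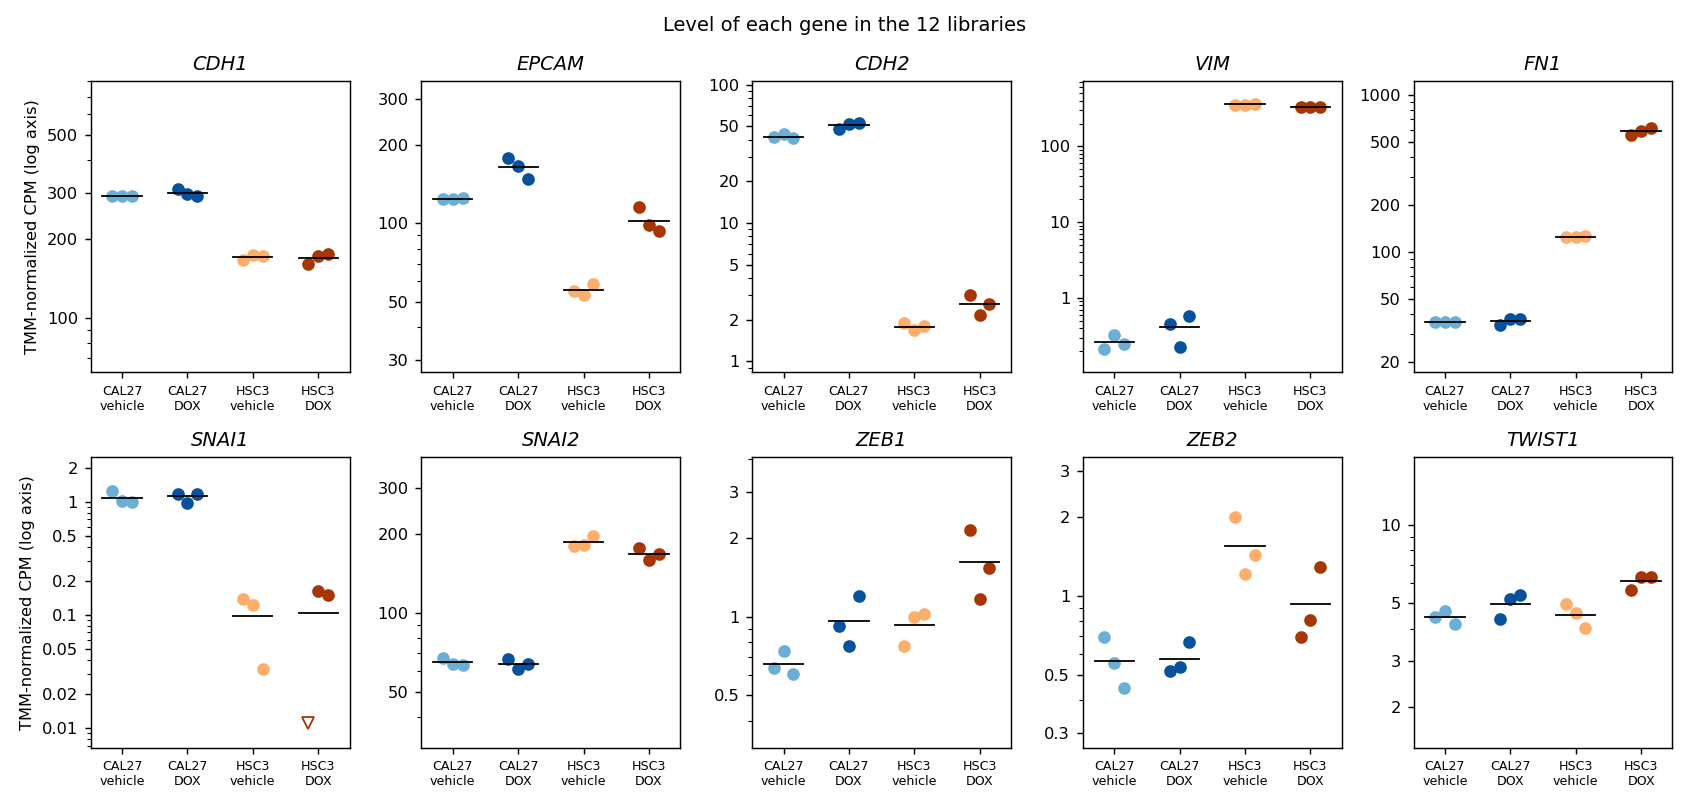
TMM-normalized CPM of the 10 genes (vertical log axes, one scale per panel) in the 3 libraries of each group; points are libraries, lines are group means and the open triangle is the HSC3 DOX library with no SNAI1 count, drawn below the lowest value. FN1 stands at 558 to 611 CPM in HSC3 cells with DOX and at 124 to 127 CPM with vehicle, and VIM is under 1 CPM in every CAL27 library and above 300 CPM in every HSC3 library.

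CDH1, which encodes E-cadherin of the adherens junction, kept the same level with DOX to within a small interval. It lies at chr16:68737292-68835537 on the plus strand (GRCh38, GENCODE v44, the build and annotation of all gene positions given here). In CAL27 cells CDH1 was at 291, 291 and 292 CPM with vehicle and at 309, 296 and 291 CPM with DOX. In HSC3 cells it was at 167, 174 and 171 CPM with vehicle and at 161, 172 and 174 CPM with DOX. The ranges of vehicle and DOX libraries overlapped in both lines. With DOX the CAL27 log2 fold change was 0.03 (95% interval -0.0444 to 0.110, edgeR adjusted p = 0.52) and that of HSC3 was -0.02 (95% interval -0.153 to 0.115, edgeR adjusted p = 0.87). These intervals are not adjusted for the number of genes. Both are narrow beside the changes of EPCAM and FN1 given next.

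EPCAM, which encodes an epithelial cell adhesion molecule, was the member whose rise passed the test in both lines. CDH2 and ZEB1 were also higher in both lines without overlap of ranges, and passed in CAL27 cells alone. It lies at chr2:47345158-47387601 on the plus strand. In CAL27 cells EPCAM was at 124, 123 and 125 CPM with vehicle and at 178, 166 and 147 CPM with DOX. In HSC3 cells it was at 55.2, 53.1 and 58.9 CPM with vehicle and at 115, 98.3 and 93.3 CPM with DOX. Every DOX library was above every vehicle library of its line, and the DOX libraries were more spread out than the vehicle libraries. The CAL27 log2 fold change was 0.40 (SE 0.0516, edgeR adjusted p = 6.7e-06), a 1.32-fold rise, and that of HSC3 was 0.87 (SE 0.0861, edgeR adjusted p = 2.8e-05), a 1.83-fold rise. The rise was larger in HSC3 cells by 0.48 on the log2 scale (SE 0.112, edgeR adjusted p = 0.0065 for the interaction of line and DOX). Non-overlapping ranges of vehicle and DOX libraries were common among all genes tested, at 51.8% in CAL27 cells and 42.6% in HSC3 cells.

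CDH2, which encodes N-cadherin, the cadherin that replaces E-cadherin in the cadherin switch, was higher with DOX by a small amount in CAL27 cells. It lies at chr18:27932879-28177946 on the minus strand. In CAL27 cells CDH2 was at 41.6, 43.6 and 41.1 CPM with vehicle and at 47.9, 51.6 and 53.0 CPM with DOX, ranges that did not overlap. The log2 fold change was 0.27 (SE 0.049, edgeR adjusted p = 0.00013). In HSC3 cells CDH2 was far lower, at 1.89, 1.68 and 1.79 CPM with vehicle and 3.03, 2.17 and 2.62 CPM with DOX. There the DOX libraries were again all above the vehicle libraries, with a log2 fold change of 0.54 (SE 0.211) that did not pass the test (edgeR adjusted p = 0.083). Divided by the counts per molecule, the HSC3 counts stood for about 28.7 to 32.9 molecules with vehicle and 26.0 to 32.6 with DOX, per library and not scaled to library size. The responses of the lines could not be distinguished (difference 0.27 on the log2 scale, 95% interval -0.033 to 0.577, edgeR adjusted p = 0.21), except without HSC3 DOX replicate 2, where the difference was 0.39 (edgeR adjusted p = 0.032). When all 12 libraries shared 1 estimate of the spread, the HSC3 change passed (edgeR adjusted p = 0.0013).

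The sequences before the transcription starts of FN1 and VIM are shown. Among the 10 genes FN1 had the largest DOX response, and VIM had the largest difference between the lines with vehicle. FN1, which encodes fibronectin, lies at chr2:215360440-215436073 on the minus strand, and VIM, which encodes vimentin, at chr10:17228241-17237593 on the plus strand. The sequences are the 250 bases upstream of the RefSeq start on GRCh38.p14, chr2:215436069-215436318 (minus strand) for FN1 and chr10:17227991-17228240 (plus strand) for VIM. Capitals mark TGACGTCA (the cAMP response element), CCAAT and GGGCGG (a GC box), searched on both strands.
FN1: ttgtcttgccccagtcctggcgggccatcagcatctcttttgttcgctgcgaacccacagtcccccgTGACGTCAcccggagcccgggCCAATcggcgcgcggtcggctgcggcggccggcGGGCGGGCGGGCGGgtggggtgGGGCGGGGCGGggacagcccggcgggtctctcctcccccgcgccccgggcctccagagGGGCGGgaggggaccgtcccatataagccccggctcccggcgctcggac
VIM: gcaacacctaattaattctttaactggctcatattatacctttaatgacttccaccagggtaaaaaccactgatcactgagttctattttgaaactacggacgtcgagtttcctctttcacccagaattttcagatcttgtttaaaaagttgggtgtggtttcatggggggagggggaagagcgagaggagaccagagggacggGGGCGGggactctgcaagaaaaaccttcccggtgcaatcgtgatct
The FN1 window held 1 TGACGTCA, which begins 183 bases before the start, 1 CCAAT at 162 bases and 6 GGGCGG matches, of which 3 overlap in a row from 129 to 121 bases and 2 in a row from 107 to 102 bases. The VIM window held 1 GGGCGG, at 46 bases, and neither of the others. Among 27305 RefSeq promoters of the same length, 1.77% held TGACGTCA, 33.0% held CCAAT and 42.3% held GGGCGG at least at 1 place. These motifs were searched in addition to the planned CAGGTG and TTCNNNGAA, so their shares are description only. The E-box CAGGTG, which SNAI and ZEB factors can bind, was in 17.5% of all promoters, and TTCNNNGAA, a STAT-type site, in 6.78%. Neither was in the FN1 or VIM window, which says only that these letters are not in these 250 bases. Promoters were matched for 5 of the 10 genes, CDH2, VIM, FN1, ZEB1 and ZEB2, and so not for CDH1 or EPCAM. Among these 5, ZEB1 held CAGGTG, at 57 bases, and none held TTCNNNGAA.

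FN1 had the largest response of the 10 genes, and it had it in HSC3 cells. It was at 124, 125 and 127 CPM in HSC3 cells with vehicle and at 558, 586 and 611 CPM with DOX, so the lowest DOX library was above 4 times the highest vehicle library. The log2 fold change was 2.22 (SE 0.0617, edgeR adjusted p = 1.5e-08), a 4.66-fold rise and the 94th highest of the 18021 genes tested. In CAL27 cells FN1 was at 35.6, 35.9 and 36.1 CPM with vehicle and at 34.4, 37.5 and 37.7 CPM with DOX, and these ranges overlapped. The log2 fold change in CAL27 cells was 0.02 (95% interval -0.0782 to 0.128, edgeR adjusted p = 0.73). The difference between the lines was 2.20 on the log2 scale (SE 0.0715, edgeR adjusted p = 9.7e-11). The HSC3 value stayed between 2.18 and 2.26 under all 14 alternatives, those that leave out 1 library included. No other annotated gene overlaps the exons of FN1 on either strand.

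VIM was a gene of HSC3 cells, with or without DOX. It was at 352, 356 and 364 CPM in HSC3 cells with vehicle and at 335, 326 and 335 CPM with DOX. The DOX libraries were all slightly below the vehicle libraries, with a log2 fold change of -0.11 (95% interval -0.227 to 0.00909, edgeR adjusted p = 0.17) that did not pass the test. In CAL27 cells VIM was at 0.210, 0.323 and 0.247 CPM with vehicle and at 0.449, 0.223 and 0.575 CPM with DOX, from 23 to 74 counts per library. The ranges overlapped, and the log2 fold change of 0.69 (SE 0.368) did not pass (edgeR adjusted p = 0.14), although it did without DOX library 5 (0.98, edgeR adjusted p = 0.032) and in the fit of all 12 libraries (0.73, edgeR adjusted p = 0.045). The responses of the lines differed by -0.83 on the log2 scale, HSC3 minus CAL27 (SE 0.267, edgeR adjusted p = 0.038). This difference rests on the few CAL27 counts and did not pass in 10 of 18 alternatives, among them each one that left out an HSC3 vehicle library, CAL27 vehicle library 1 or 3, CAL27 DOX library 4 or 6 or HSC3 DOX library 3, with adjusted p up to 0.26.

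VIM-AS1, an antisense RNA whose gene overlaps the 5′ end of VIM, rose with DOX in HSC3 cells while VIM itself did not pass. It was at 2.71, 3.94 and 3.53 CPM with vehicle and at 7.66, 6.24 and 6.38 CPM with DOX (log2 fold change 0.99, SE 0.175, edgeR adjusted p = 0.0015). In CAL27 cells it stayed under 0.1 CPM in every library. In the annotation 24.6% of the VIM exon length lies under exons of antisense genes and 30.9% of the VIM-AS1 exon length under VIM. The library kit keeps strand, but how strand was used in counting is not given in the sources used here, so the split of reads between these genes is uncertain.

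Of the 5 transcription factor genes, ZEB1 in CAL27 cells was the one whose change passed the test. SNAI2, a zinc-finger repressor of CDH1, had the highest level per exon length among them in both lines. In CAL27 cells SNAI2 was at 67.2, 63.7 and 63.3 CPM with vehicle and at 66.5, 61.2 and 64.0 CPM with DOX (log2 fold change -0.02, 95% interval -0.109 to 0.0674, edgeR adjusted p = 0.73). In HSC3 cells it was at 179.7, 181 and 197 CPM with vehicle and at 177, 159 and 168 CPM with DOX. The HSC3 ranges were next to each other without overlap, and the log2 fold change of -0.16 (SE 0.0652) did not pass (edgeR adjusted p = 0.11). It passed without HSC3 DOX replicate 1, at -0.19 (edgeR adjusted p = 0.0088), and with normalization to library totals, at -0.18 (edgeR adjusted p = 0.041).

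SNAI1, the related repressor, was near the limit of detection in HSC3 cells. It was at 1.247, 1.02 and 0.990 CPM in CAL27 cells with vehicle and at 1.18, 0.980 and 1.18 CPM with DOX, overlapping ranges with a log2 fold change of 0.03 (95% interval -0.348 to 0.414, edgeR adjusted p = 0.91). In HSC3 cells SNAI1 had 16, 10 and 4 counts with vehicle and 0, 22 and 18 counts with DOX, which is at most about 2.45 molecules per library by the counts per molecule. A response of SNAI1 in HSC3 cells was not detectable at this depth, with a 95% interval of the log2 fold change from -2.92 to 3.10 (edgeR adjusted p = 0.97).

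ZEB1 and ZEB2, zinc-finger homeobox repressors of epithelial genes, were both low. ZEB1 was at 0.638, 0.738 and 0.602 CPM in CAL27 cells with vehicle and at 0.918, 0.776 and 1.196 CPM with DOX, without overlap. Its log2 fold change of 0.55 (SE 0.221) passed narrowly (edgeR adjusted p = 0.049), and it did not pass in 9 of 13 alternatives, with adjusted p from 0.03 to 0.24 over all of them. Leaving out any 1 vehicle library or DOX library 4 or 6 was enough to lose it, and without DOX library 6 the change was 0.36 (edgeR adjusted p = 0.24). In HSC3 cells ZEB1 was at 0.772, 0.997 and 1.02 CPM with vehicle and at 2.14, 1.17 and 1.54 CPM with DOX. These ranges did not overlap either, and the log2 fold change of 0.79 (SE 0.30) did not pass (edgeR adjusted p = 0.073). It did pass without DOX replicate 2, at 0.98 (edgeR adjusted p = 0.041). The HSC3 counts of ZEB1 were 82 to 122 with vehicle and 158 to 318 with DOX. They stood for about 12.8 to 19.5 and 16.5 to 18.4 molecules per library, again not scaled. In CAL27 cells the ZEB1 counts stood for about 28.7 to 30.2 molecules with vehicle and 27.6 to 53 with DOX.

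ZEB2 gave no detectable change. In CAL27 cells it was at 0.696, 0.554 and 0.445 CPM with vehicle and at 0.516, 0.533 and 0.668 CPM with DOX (log2 fold change 0.02, 95% interval -0.512 to 0.548, edgeR adjusted p = 0.96). In HSC3 cells ZEB2 was at 2.01, 1.22 and 1.43 CPM with vehicle and at 0.694, 0.809 and 1.29 CPM with DOX. One DOX library lay within the vehicle range, and the log2 fold change of -0.75 (95% interval -1.47 to -0.0188) did not pass after adjustment (edgeR adjusted p = 0.12).

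TWIST1, a basic helix-loop-helix factor, was close to the threshold in HSC3 cells. In CAL27 cells it was at 4.42, 4.67 and 4.17 CPM with vehicle and at 4.37, 5.21 and 5.37 CPM with DOX, with overlap (log2 fold change 0.17, 95% interval -0.0453 to 0.390, edgeR adjusted p = 0.20). It passed there without DOX library 4, at 0.26 (edgeR adjusted p = 0.046). In HSC3 cells TWIST1 was at 4.97, 4.57 and 4.04 CPM with vehicle and at 5.63, 6.31 and 6.31 CPM with DOX. The DOX libraries were all higher, with a log2 fold change of 0.42 (SE 0.148, edgeR adjusted p = 0.055) that passed in 5 of 14 alternatives, one of which left out DOX replicate 1 (0.48, edgeR adjusted p = 0.019).

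**Figure D2:**
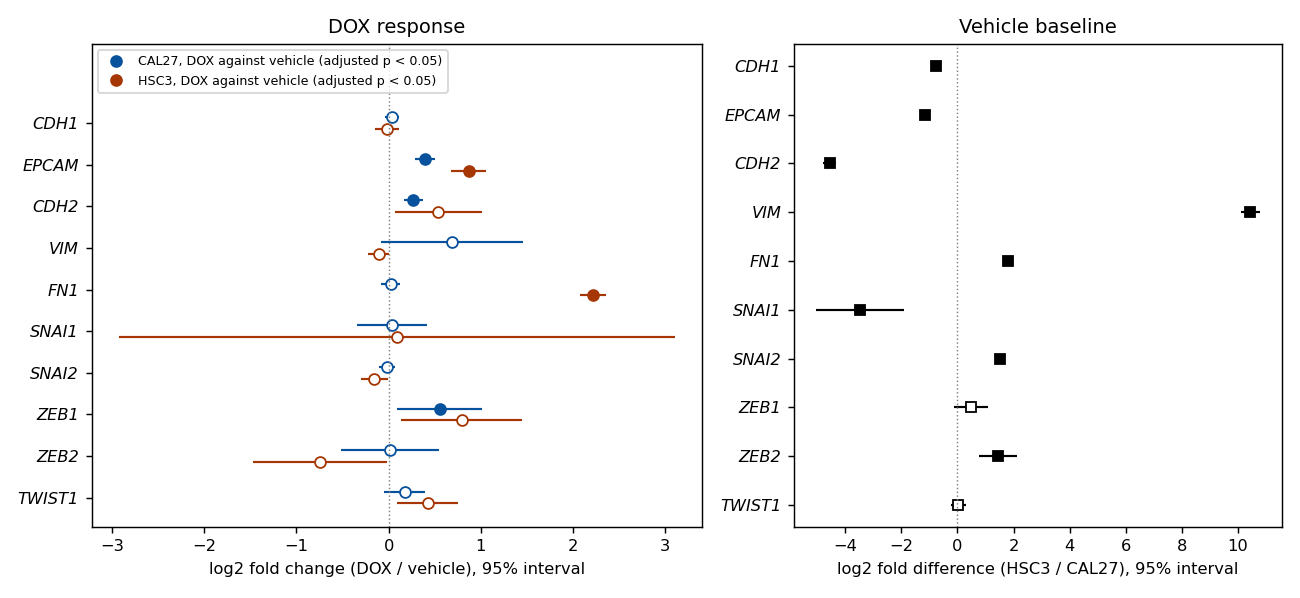
Log2 fold changes of the 10 genes with 95% intervals, on the left for DOX against vehicle in CAL27 (blue) and HSC3 (brown) cells and on the right for HSC3 against CAL27 cells with vehicle; filled symbols passed edgeR's test at an adjusted p under 0.05 and open symbols did not. The left panel shows FN1 at 2.22 in HSC3 cells, apart from the other members, and the right panel shows VIM at 10.44 and CDH2 at -4.55.

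The difference in response between the lines was tested for all 10 genes. Over all genes 20.6% passed. It passed for FN1 and EPCAM, whose rise was larger in HSC3 cells, and for VIM as given above, where 8.25% of 20694 genes tested differed in the first direction and 12.3% in the second. For the other 7 genes the difference did not pass, with edgeR adjusted p from 0.21 to 1. A call in 1 line and not in the other is therefore not a difference between lines for ZEB1 (0.25 on the log2 scale, SE 0.394, edgeR adjusted p = 0.74) or CDH2. The median difference was 0.15 over the members and -0.02 over all genes tested.

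With vehicle, the lines differed in 8 of the 10 genes, where 62.9% of the 20694 genes tested differed, 30.6% being higher and 32.3% lower in HSC3 cells. The median of all genes was -0.12 on the log2 scale (HSC3 minus CAL27), and it moved to -0.39 when library totals replaced TMM, so differences of this size depend on the scaling. VIM, FN1, ZEB2 and SNAI2 were higher in HSC3 cells, and CDH1, EPCAM, CDH2 and SNAI1 were higher in CAL27 cells. Each line is 1 line, so these tests rest on the spread between libraries and not between lines of a kind. The ranges of the vehicle libraries did not overlap in 74.3% of all genes tested.

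VIM had the widest gap, with 0.210 to 0.323 CPM in CAL27 cells against 352 to 364 CPM in HSC3 cells (log2 difference 10.44, SE 0.160, edgeR adjusted p = 1.9e-16), about 1390-fold. FN1 (log2 difference 1.80, SE 0.0515, edgeR adjusted p = 1.3e-13) and SNAI2 (1.52, SE 0.0585, edgeR adjusted p = 3.4e-12) were also higher in HSC3 cells. CDH1, at 167 to 174 CPM, was lower there by 0.77 on the log2 scale (SE 0.0467, edgeR adjusted p = 7.9e-10), which is 1.71-fold. EPCAM was lower by 1.16 on the log2 scale (SE 0.0805, edgeR adjusted p = 4.1e-09). So the line with the vimentin level also kept E-cadherin and EPCAM mRNA (1.71-fold and 2.23-fold lower than in CAL27 cells).

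CDH2 ran against the other mesenchymal structural genes. It was 23.5-fold lower in HSC3 cells, which had the VIM and FN1, than in CAL27 cells (log2 difference -4.55, SE 0.111, edgeR adjusted p = 2.3e-14). The factor genes were mixed in the same way. SNAI1 was lower in HSC3 cells (log2 difference -3.48, SE 0.734, edgeR adjusted p = 0.00065) and ZEB2 higher (1.46, SE 0.316, edgeR adjusted p = 0.00083), both from low counts. ZEB1 (0.50, SE 0.282, edgeR adjusted p = 0.14) and TWIST1 (0.03, SE 0.126, edgeR adjusted p = 0.83) did not pass, and the sign of the TWIST1 difference turned under other scalings.

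Levels can be set between genes once they are divided by exon length. With vehicle, CAL27 cells had the order EPCAM (51.1 ± 0.389 CPM per kb, mean ± SD, n = 3), CDH1 (48.0 ± 0.142), SNAI2 (19.7 ± 0.655), CDH2 (4.91 ± 0.155), TWIST1 (2.21 ± 0.125), FN1 (2.08 ± 0.0148), SNAI1 (0.636 ± 0.0832), ZEB1 (0.0762 ± 0.00817), VIM (0.0503 ± 0.0111) and ZEB2 (0.0216 ± 0.00480). Per exon length the ranges of TWIST1 and FN1 overlapped, while every other pair of neighbours in this order was apart. In HSC3 cells with vehicle the order was VIM (69.0 ± 1.16 CPM per kb), SNAI2 (56.7 ± 2.99), CDH1 (28.1 ± 0.622), EPCAM (22.9 ± 1.21), FN1 (7.27 ± 0.0993), TWIST1 (2.27 ± 0.234), CDH2 (0.208 ± 0.0124), ZEB1 (0.108 ± 0.0160), ZEB2 (0.0594 ± 0.0157) and SNAI1 (0.0574 ± 0.0331). ZEB2 and SNAI1 overlapped and the other neighbours did not. With DOX, FN1 in HSC3 cells reached 34.0 ± 1.55 CPM per kb and went from the 70.3 to the 93.2 percentile of 17679 genes ranked, and EPCAM reached 42.1 ± 4.73 CPM per kb. Exon lengths are unions over all annotated transcripts, so the levels of genes with long rare isoforms are understated.

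Ratios within a library show the same picture without any scaling between libraries. CDH1 over VIM per exon length was 984 ± 208 (SD, n = 3) in CAL27 cells with vehicle and 0.408 ± 0.00843 in HSC3 cells. CDH1 over CDH2 had the opposite order, 9.78 ± 0.330 for CAL27 and 136 ± 11.0 for HSC3. CDH1 over FN1 was 3.87 ± 0.0734 in HSC3 cells with vehicle and 0.819 ± 0.0115 with DOX, while in CAL27 cells it was 23.0 ± 0.146 and 23.2 ± 1.92. In HSC3 cells with DOX, fibronectin mRNA thus passed E-cadherin mRNA per exon length, with CDH1 itself at its vehicle level.

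**Figure D3:**
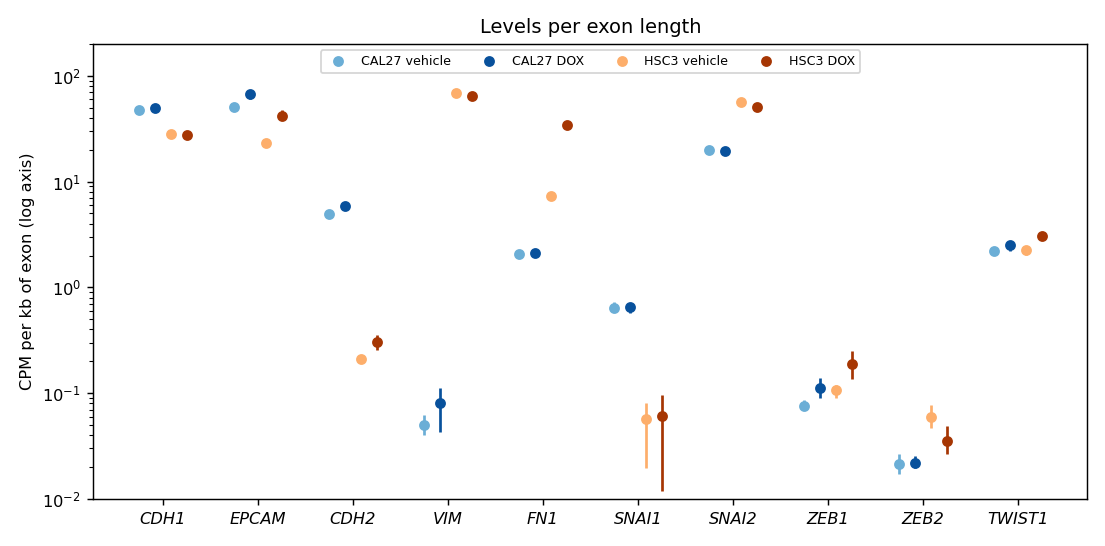
CPM per kb of exon (vertical log axis) of the 10 genes in the 4 groups; points are means of 3 libraries and lines run from the lowest to the highest library, with a library at 0 drawn at the lower end. VIM goes from 0.0503 in CAL27 cells to 69.0 in HSC3 cells with vehicle, and CDH2 from 4.91 to 0.208.

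The genes around these 10 were read as lists, each beside the shares of all genes tested, which were 22.6% higher and 21.8% lower in CAL27 cells and 13% higher and 15.4% lower in HSC3 cells. Of 23 other epithelial genes, 3 rose and 9 fell in CAL27 cells (median log2 fold change -0.03), and 5 rose and 4 fell in HSC3 cells (median 0.15). ESRP2, an epithelial splicing factor, rose in CAL27 (0.22, SE 0.0496, edgeR adjusted p = 0.0013) and in HSC3 cells (0.52, SE 0.0937, edgeR adjusted p = 0.0016). KLF5, a factor of basal epithelium, fell in both, with log2 fold changes of -1.09 (SE 0.0451, edgeR adjusted p = 2.1e-13) and -0.97 (SE 0.0623, edgeR adjusted p = 1.4e-06). CTNND1, p120 catenin of the adherens junction, rose in HSC3 cells by 0.94 (SE 0.113, edgeR adjusted p = 0.00012) and fell in CAL27 cells (-0.20, SE 0.052, edgeR adjusted p = 0.0033). ELF3, an epithelial ETS factor, fell in CAL27 cells by 1.07 (SE 0.0737, edgeR adjusted p = 5e-08).

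Of 17 other EMT factors, 13 could be tested in each line, and 3 rose and 7 fell in CAL27 cells while 7 rose and 1 fell in HSC3 cells, beside 22.6% higher and 21.8% lower of all CAL27 genes and 13% and 15.4% of all HSC3 genes. Their medians were -0.18 and 0.25. HMGA2, a chromatin protein that can induce SNAI1 and TWIST1, rose in both lines, from 79.6 ± 0.912 to 307.5 ± 12.2 CPM (mean ± SD, n = 3) in CAL27 cells and from 2388 ± 59.5 to 3538 ± 377 CPM in HSC3 cells. FOXQ1, a forkhead factor, fell in CAL27 cells from 64.1 ± 1.69 to 22.6 ± 0.846 CPM and rose in HSC3 cells from 73.3 ± 0.434 to 127 ± 4.14 CPM. The FOXQ1 responses differed by 2.30 on the log2 scale (SE 0.0722, edgeR adjusted p = 9.7e-11).

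Of 22 other mesenchymal genes, 17 were tested in CAL27 cells, where 4 rose and 8 fell (median -0.49), and 14 in HSC3 cells, where 4 rose and 2 fell (median -0.01). Over all genes 22.6% were higher and 21.8% lower in the first line and 13% and 15.4% in the second. NT5E, the surface nucleotidase CD73, rose in CAL27 cells from 77.9 ± 4.87 to 269 ± 16.4 CPM. SPARC, a matrix glycoprotein, rose in HSC3 cells by 0.78 on the log2 scale (SE 0.060, edgeR adjusted p = 4.8e-06). The matrix gene FBN1 (fibrillin) fell in both lines, with log2 fold changes of -1.499 (SE 0.0906, edgeR adjusted p = 9.3e-07) for HSC3 and -0.66 (SE 0.0977, edgeR adjusted p = 1.1e-05) for CAL27. MMP2, a gelatinase, fell in both too, with -2.13 (SE 0.125, edgeR adjusted p = 7.5e-07) and -1.80 (SE 0.163, edgeR adjusted p = 1.8e-08), and a difference between the lines did not pass (edgeR adjusted p = 0.27).

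Of the 32 genes of a partial EMT list for HNSCC, 13 were higher and 14 lower in CAL27 cells (median 0.03), where 22.6% and 21.8% of all genes were. In HSC3 cells 5 were higher and 20 lower (median -0.33), where 13% and 15.4% of all genes were. THBS1, a matrix protein, rose in both lines, by 1.28 (SE 0.0492, edgeR adjusted p = 6.8e-14) and 1.18 (SE 0.0641, edgeR adjusted p = 4.9e-07). MMP1, a collagenase, fell by 3.63 (SE 0.245, edgeR adjusted p = 0.00034) in CAL27 cells and fell by 1.63 (SE 0.0612, edgeR adjusted p = 6.5e-08) for HSC3, both on the log2 scale. MMP10 fell in both lines too, with log2 fold changes of -3.98 (SE 0.387, edgeR adjusted p = 0.0013) for CAL27 and -2.71 (SE 0.171, edgeR adjusted p = 1.2e-06) for HSC3. PDPN, podoplanin, dropped by 2.46 (SE 0.177, edgeR adjusted p = 2.9e-06) in HSC3 cells.

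TGF-β signalling is a main inducer of EMT and of FN1. Of 9 of its ligand, receptor and SMAD genes, 4 rose and 2 fell in CAL27 cells and 2 rose and 3 fell in HSC3 cells (medians 0.13 and -0.10), counts that for 9 genes are not far from the 22.6% and 21.8% of all CAL27 genes and the 13% and 15.4% of all HSC3 genes. TGFB2, a ligand, and TGFBR2, the type II receptor, rose in both lines, while TGFBR1 and SMAD2 fell in both. The log2 fold change of TGFBR1 was -0.22 (SE 0.0437, edgeR adjusted p = 0.00027) in CAL27 cells and -0.68 (SE 0.0746, edgeR adjusted p = 6.2e-05) in HSC3 cells. That of SMAD2 was -0.32 (SE 0.0391, edgeR adjusted p = 1.2e-06) in CAL27 cells and -0.71 (SE 0.094, edgeR adjusted p = 0.00023) in HSC3 cells. TGFB2 went from 14.9 ± 0.820 to 38.9 ± 2.62 CPM in HSC3 cells (log2 fold change 1.38, SE 0.0902, edgeR adjusted p = 1.5e-06) and from 69.96 ± 1.36 to 106 ± 1.90 CPM in CAL27 cells (0.60, SE 0.0388, edgeR adjusted p = 1.5e-10). TGFBR2 went from 321 ± 6.50 to 627 ± 16.4 CPM in HSC3 cells and from 73.8 ± 2.74 to 129.6 ± 6.93 CPM in CAL27 cells. TGFB1 went in opposite directions, higher in CAL27 cells (0.59, SE 0.0632, edgeR adjusted p = 2e-07) and lower in HSC3 cells (-0.52, SE 0.112, edgeR adjusted p = 0.0049). INHBA, which encodes a subunit of the related ligand activin A, rose in HSC3 cells by 1.09 (SE 0.0708, edgeR adjusted p = 1.5e-06).

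**Figure D4:**
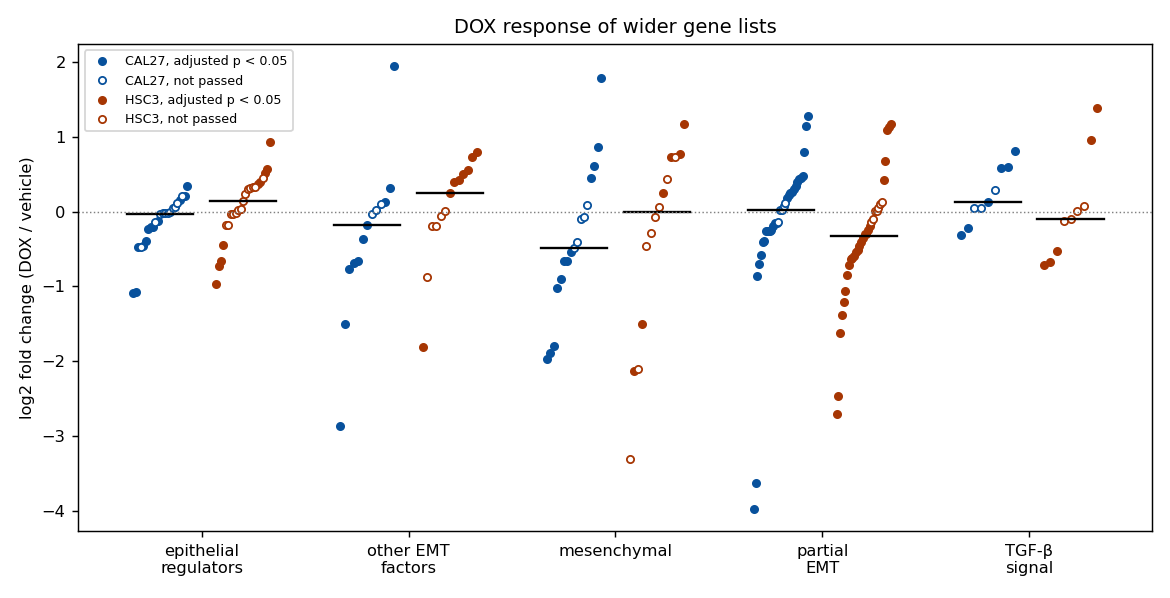
Log2 fold change with DOX (vertical axis) of each tested gene of 5 lists in CAL27 (blue) and HSC3 (brown) cells, ordered by value within a list; filled points passed edgeR's test at an adjusted p under 0.05 and bars are list medians. The bar of the other EMT factors lies at -0.18 in CAL27 and 0.25 in HSC3 cells and that of the partial EMT list at 0.03 and -0.33.

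ZEB1 and ZEB2 are held down in epithelial cells by the miR-200 family and miR-205. MIR200CHG, which hosts miR-200c and miR-141, and MIR205HG, which hosts miR-205, were therefore read too. Host genes of other miR-200 members were not read. The mature sequences are given with the seed, bases 2 to 8, in capitals (RefSeq, GRCh38.p14), since the seed sets which messages a miRNA can pair with.
hsa-miR-200c-3p: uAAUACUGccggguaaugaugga
hsa-miR-141-3p: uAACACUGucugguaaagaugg
hsa-miR-205-5p: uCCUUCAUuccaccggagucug
The first and the second lie in MIR200CHG and do not share their whole seed. The last lies in MIR205HG and starts its seed with other bases. The mature miRNAs were not measured in these polyA libraries. MIR200CHG was near 1 CPM or lower in every library. MIR205HG was at 455, 485 and 439 CPM in CAL27 cells with vehicle and at 432, 476 and 539 CPM with DOX, and it did not pass there (log2 fold change 0.07, SE 0.0833, edgeR adjusted p = 0.58). In HSC3 cells MIR205HG fell from 784, 826 and 807 CPM to 612, 602 and 595 CPM (log2 fold change -0.42, SE 0.0535, edgeR adjusted p = 0.00017). Of 8 listed noncoding neighbours, 6 were in the tables; 4 were tested in CAL27 cells, where SNAI3-AS1 fell, and 5 in HSC3 cells, where VIM-AS1 rose and MIR205HG fell.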

How the data were processed

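RNA-seq was performed on TRIzol-extracted RNA from triplicate cultures with TruSeq Stranded mRNA libraries. The authors deposited whole-number counts per gene symbol, 1 table for each line, not normalized. The submitters' processing notes name STAR 2.7.9a, featureCounts (Subread 2.0.1), FastQC 0.11.9 and GRCh38. The annotation, strand setting and handling of duplicated and multiply mapped reads are not given in the sources used here. CAL27 DOX columns are numbered 4 to 6 while the samples are numbered otherwise, so they were mapped to their group only.

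Counts were tested in R 4.3.3 with edgeR 4.0.16 (TMM, filterByExpr with minimums of 10 and 15, glmQLFit with robust estimation, glmQLFTest, two-sided). Each line was fitted alone, and the baseline and the interaction in 1 fit of 12 libraries. P-values were adjusted by the Benjamini-Hochberg method over all genes tested, with calls at 0.05. Intervals are log2 fold change ± t quantile × SE and cover the spread between these cultures, for which no separate transductions are stated. Replicate pairs were compared, and none held the same values. Levels per exon length used GENCODE v44. Alternatives were DESeq2 1.42.0, its size factors, library totals, no filter, a fold above 2, 1 shared fit, counts divided by counts per molecule, a replicate block and each library left out.

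The members and lists were chosen with earlier results of these data known. Besides the members and MUC1, up to 3 genes in each direction per list and line were picked to be named. They were those with the largest change among called genes with mean log2 CPM of at least 3. The genes nearest in profile to CDH1, FN1 and VIM were picked too. Not every picked gene is described. VIM-AS1, ZEB1-AS1, SNAI3-AS1, MIR200CHG and the cell type markers are given outside this rule. The tests were checked on simulated counts with the same spread for every gene and with changes placed in well-counted genes only. At a log2 fold change of 1.5, 97.5% to 100% of the 200 changed genes were recovered, and 8 to 12 others were called. This check does not cover genes with few counts or a spread that differs between genes or groups.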

Additional observations from a re-analysis of the deposited data

Results flagged for a closer look

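Genes named here were picked out because their DOX response differed between the lines in the interaction test of edgeR at an adjusted p under 0.05, as 20.6% of all genes tested did. Values are differences on the log2 scale, HSC3 response minus CAL27 response, and no explanation was tested. Among the 10 EMT genes they were 2.20 for FN1, 0.48 for EPCAM and -0.83 for VIM. The shRNA target MUC1 was at 1.36, with the larger measured fall in CAL27 cells. In HSC3 cells with DOX, MUC1 had 46, 36 and 16 counts, in libraries with 17.3, 8.98 and 11.3 counts per molecule. Its fall there thus rests on few molecules. This MUC1 difference did not pass with counts divided by counts per molecule (1.31, edgeR adjusted p = 0.096).

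Among epithelial genes the differences were 1.38 for ELF3, 1.14 for CTNND1, 0.57 for PRSS8, 0.49 for JUP, -0.27 for CDH3 and -0.53 for ST14. Among other EMT factors they were 2.30 for FOXQ1, 0.94 for FOXC1, 0.61 for SOX4, 0.60 for SOX9 and -1.38 for HMGA2, which rose in both lines.

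Among mesenchymal genes the differences were 0.85 for SPARC, -0.83 for FBN1 and -1.73 for NT5E. Among partial EMT genes they were 2.00 for MMP1, 1.38 for TPM1, 1.26 for MMP10, 1.23 for INHBA, -0.45 for ITGB1, -0.78 for LAMA3, -0.97 for SEMA3C and -2.08 for PDPN. MMP1 and MMP10 fell in both lines, and further in CAL27 cells, while TPM1 and INHBA rose in HSC3 cells. Among genes of TGF-β signalling the differences were 0.79 for TGFB2, -0.39 for SMAD2, -0.45 for TGFBR1 and -1.11 for TGFB1, and MIR205HG was at -0.49. The SMAD2 difference did not pass in 8 of 18 alternatives (edgeR adjusted p up to 0.078), among them each one without 1 CAL27 vehicle library, CAL27 DOX library 4 or 6 or HSC3 vehicle replicate 1 or 3. The MMP10 difference did not pass in 4 of 18 (up to 0.29), among them those without CAL27 DOX library 5 or HSC3 DOX replicate 1, and that of JUP did not with no filter on low counts (edgeR adjusted p = 0.058).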

How the results depend on the processing

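The rise of FN1 in HSC3 cells and its difference between the lines held in every alternative, and those of EPCAM in each one that kept the call rule. A fold above 2 left 0 of the 10 genes higher in CAL27, 1 in HSC3, and 1 higher and 0 lower in the difference of response. Over all genes it left 252 higher and 984 lower for CAL27, 284 and 793 for HSC3, 454 and 624 for the difference and 2730 and 3862 at baseline, and of the wider lists 4 higher and 10 lower in CAL27 and 5 and 9 in HSC3 cells. In 1 fit of 12 libraries CAL27 cells had 2746 genes higher and 2337 lower, with 26 of the wider lists lower, and HSC3 cells had 5 of the 10 genes higher, with CDH2, ZEB1 and TWIST1 added (edgeR adjusted p = 0.0013, 0.036 and 0.015). With library totals 1 member, SNAI2, was lower in HSC3 cells. With no filter 0 members were lower in the difference of response, VIM at -0.82 (edgeR adjusted p = 0.066). The causes were not tested.

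The sign of the TWIST1 baseline turned with DESeq2 size factors (-0.0119), library totals (-0.24) and DESeq2 (-0.0121). With 1 library left out, HSC3 cells had 1514 (without vehicle replicate 2) to 3268 genes higher and 0 to 1 members lower, and the difference of response had 1336 to 2614 genes higher (most without HSC3 DOX replicate 1) and 0 to 1 members lower. Signs turned within these ranges for values near 0, none of which passed: in CAL27 cells SNAI1 -0.041 to 0.13, SNAI2 -0.0495 to 0.0073 and ZEB2 -0.14 to 0.19; in HSC3 cells CDH1 -0.045 to 0.0206 and SNAI1 -0.40 to 0.68; in the difference of response CDH1 -0.0654 to 0.0044 and SNAI1 -0.48 to 0.68; at baseline TWIST1 -0.0505 to 0.10.

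Same-numbered HSC3 vehicle and DOX libraries did not deviate together in a consistent way (r = -0.199, 0.343 and -0.34). Deviations from a mean of 3 libraries depend on each other, so these values cannot decide whether the numbers pair the libraries. Between same-numbered vehicle libraries of the lines r was 0.0778, 0.104 and 0.156, and between differently numbered ones -0.0939 to 0.0036. A shared batch by number was not tested. With the replicate block 1955 genes were higher and 2523 lower in HSC3 cells, 2 of the 10 genes were higher and 0 lower, and SNAI1 was at -0.30. No paired analysis was possible for CAL27 because its DOX columns carry no matching numbers. The baseline with the 6 vehicle libraries alone kept 4 members higher and 4 lower. So did the same fit with a replicate block, an alternative chosen after seeing the data. SNAI1 in HSC3 cells had too few counts to be fitted with counts divided by counts per molecule. Over all alternatives for single members, 587 values kept their direction and side of the threshold, 24 lost the call, 14 gained one and 24 turned sign. SNAI1, ZEB1, ZEB2 and CDH2 in HSC3 cells rest on few estimated molecules, 0 to 33.4 per library. So do VIM (7.93 to 25.5), ZEB2 (16 to 31.3), ZEB1 (27.6 to 53) and SNAI1 (34.8 to 56) in CAL27 cells.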

Other observations

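The genes nearest to CDH1 in profile, by the mean absolute difference of centred log2 CPM over the 12 libraries among 20694 genes, were TUFM (0.0397), ATP5F1A (0.0442) and EIF4A3 (0.0451). Those nearest to FN1 were BMPER (0.272), PSG5 (0.306) and PLA2G4C (0.334). BMPER was at 0.456 ± 0.119 CPM (SD, n = 3) in CAL27 cells with vehicle. In HSC3 cells it was at 1.48 ± 0.0766 CPM with vehicle and at 5.12 ± 0.803 CPM with DOX. PSG5 was at 0.962 ± 0.151, 4.99 ± 0.962 and 12.5 ± 1.11 CPM in the same groups. Near VIM were SMIM19 (0.255) and LINC00667 (0.274), SMIM19 with no count in CAL27 cells with vehicle and 23.0 ± 0.575 CPM in HSC3 cells with vehicle. The likeness is a description over libraries of 2 lines, which fix most of each profile.

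ZEB1-AS1, divergent to ZEB1, was at 1.57, 1.52 and 1.33 CPM in CAL27 cells with vehicle and at 6.91, 7.09 and 6.22 CPM in HSC3 cells, where ZEB1 itself was not called different at baseline. In the annotation 10.3% of the ZEB1-AS1 exon length lies opposite ZEB1 exons, and since the use of strand in counting is not given in the sources used here, the split of reads between them is uncertain.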
